A study of Mus musculus with 24 samples.

Results

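The 9 genes described here encode parts of the calcium response machinery of neurons: the calmodulin genes Calm2 and Calm3, the calcineurin subunit genes Ppp3ca, Ppp3cb and Ppp3r1, and the 4 genes of calcium/calmodulin-dependent kinase II (CaMKII), Camk2a, Camk2b, Camk2d and Camk2g. They were taken as a named list, selected on the presence or absence of listed peaks in these data, and all peaks on the strand of each gene that overlapped its body by at least 1 bp were collected. That gave 12 of the 29007 listed peaks, and they lay over 7 of the 9 genes. The genes form part of 21951 annotated protein-coding genes. Camk2a and Camk2d had no peak on any day.

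The study pulled down the double-stranded RNA-binding protein STAU2 from mouse embryonic cortex with a monoclonal antibody (RNA immunoprecipitation, RIP) and compared the RNA that came with it to input RNA. The series holds 24 libraries in 8 groups of 3: STAU2 RIP and input at each of 4 embryonic days (E), from E11.5 in steps through E13.5 and E15.5 up to E17.5. Each library came from cortical tissue pooled over a litter, so it averages over embryos and over all cells of the cortex, and the labels name no strain, genotype or treatment for any group. The authors deposited 1 peak list per day and strand, which all 6 libraries of that day share. No replicate has values of its own, neither replicate error nor sequencing depth is known, and no test between days was possible.

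Calmodulin is a small protein that changes shape when it binds calcium and then switches on its target enzymes. In neurons these include calcineurin, a phosphatase built of a catalytic A subunit and a calcium-binding B subunit, and CaMKII, a kinase of many subunits that marks recent calcium entry at synapses. STAU2 is known for carrying messenger RNAs into dendrites and for affecting how long they last. It binds RNA that folds back into paired stems, which are common in 3' untranslated regions (3' UTRs), the part of a messenger RNA that follows the stop codon.

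The sequences under the peaks are shown because STAU2 is known to bind paired RNA; a listed peak is not a mapped contact. For each gene with a peak, the most stable stretch of 30 nt within its best-ranked peak that lay inside 1 exon is shown, 5' to 3' on the RNA strand with T for U. Capitals mark the bases paired in the minimum free energy fold of that stretch. The coordinates are in mm10, and the sequences come from the GENCODE vM21 transcripts.
Calm2, E17.5, chr17:87433678-87433707, minus strand: aggaACTgTCAGCAtgttgtTGTTGAAGTg
Calm3, E11.5, chr7:16916918-16916947, minus strand: aGGccCGGGCAgctggccaTGCCCGttCTc
Ppp3ca, E17.5, chr3:136937481-136937510, plus strand: aacgtttctccTGTGGGtatttcCCCACAa
Ppp3cb, E15.5, chr14:20500901-20500930, minus strand: tgtgGCTAAttCTGTaacATAGtcTTGGTa
Ppp3r1, E13.5, chr11:17199826-17199855, plus strand: gtGCTTgGTGTCtctgcatGACATgGAGTt
Camk2b, E17.5, chr11:5969978-5970007, minus strand: gtGGCCTGCCAcccTGGCatcctgGGGTCt
Camk2g, E15.5, chr14:20735452-20735481, minus strand: GAGGcAATTGGtcatagtcTTGGTTcCCTC

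The Calm3 stretch was the most stable of the 7, at -11.5 kcal/mol, and began with the first base after the stop codon. The Ppp3r1 stretch followed at -10.8 kcal/mol and the Ppp3ca stretch, a hairpin with 12 paired bases, at -9.1 kcal/mol. The Camk2b stretch came to -8.6, that of Calm2 to -7.5, that of Ppp3cb to -4.8 and that of Camk2g to -4.4 kcal/mol. Each was picked as the lowest of its peak, and wider peaks offer more stretches to choose from, so these energies are not to be ranked as binding strength.

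Of the 9 genes, 1 had a peak over its body at E11.5 (Calm3) and 2 did at E13.5 (Ppp3cb and Ppp3r1). At E15.5 there were 4 (Calm2, Ppp3cb, Ppp3r1 and Camk2g), and 3 at E17.5 (Calm2, Ppp3ca and Camk2b). With each list shortened to its strongest 5871 peaks, 2 of the genes had a peak at E15.5, the day with the longest list, and 3 did at E17.5. In the full lists a peak lay over the body, day by day, of 10.4%, 12.6%, 20.8% and 14.3% of all protein-coding genes, and of 32% on any day. Counting peaks that touched an exon left the members' numbers as they were, beside 9.09%, 11.8%, 19.9% and 13.6% of all protein-coding genes and 30.1% on any day. The members were chosen with their peaks known, so their count is not read against these shares. Calm2, Ppp3cb and Ppp3r1 had peaks on 2 days, Calm3, Ppp3ca, Camk2b and Camk2g on 1 day, and none of the 9 on 3 or more. The absence of a gene from a list is not a measured zero: fewer cells of a type, less RNA per cell and a smaller difference between RIP and input cannot be told apart here. The sources used here do not say whether a listed peak was higher in RIP or in input, so a peak is not read as enrichment with STAU2.

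All 12 peaks touched the last exon of the longest coding transcript of their gene, as did 57.4% of the 18912 peaks that touched an exon of any protein-coding gene on its strand. In 10 of the 12 the midpoint fell in an exon, and in all 10 that was in the 3' UTR. Of all 15725 such peaks with an exonic midpoint, 62.8% had it in a 3' UTR. The other 2, both over Calm2, had their midpoint in its last intron. The 10 peaks within 1 exon were 49 to 149 bp wide. In 7 of these 10 the midpoint lay in the distal 50% of the 3' UTR, with the short Calm2 peak, at 50.5% of its length, just past that point. The median position over 8990 peaks within 3' UTRs was 43.4% of the length.

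**Figure D1:**
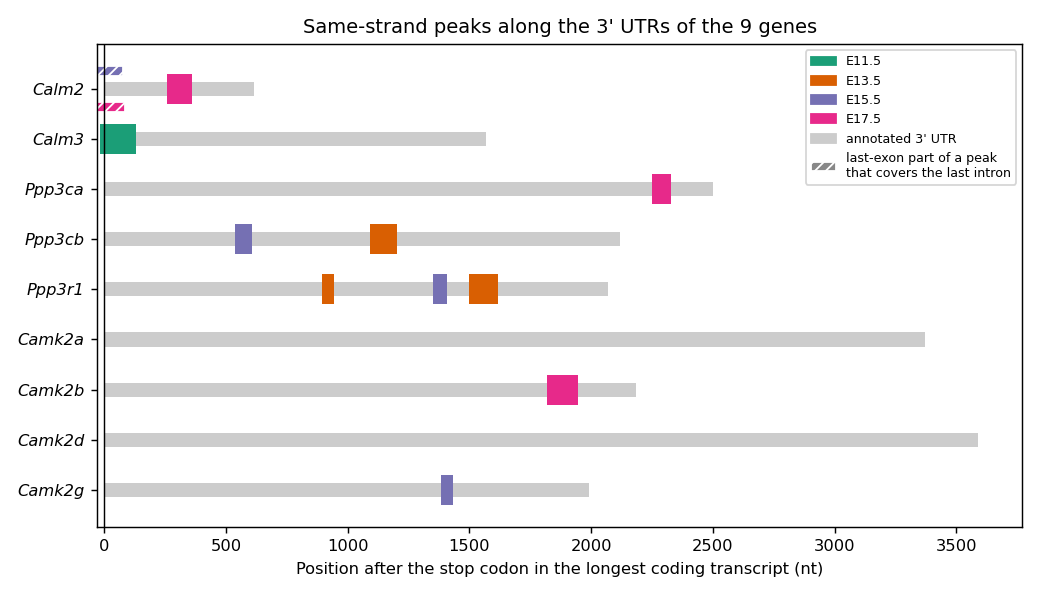
Position of each same-strand peak in nt after the stop codon (x axis), coloured by embryonic day. Grey marks the annotated 3' UTR of the longest coding transcript of each gene (rows). For the Calm2 peaks of 1147 and 1158 bp only the last-exon part is drawn, hatched. The Calm3 peak sits at the stop codon and the Ppp3ca and Camk2b peaks near the end of their 3' UTRs; Camk2a and Camk2d carry none.

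Calm2 and Calm3 specify the same calmodulin protein but differ in their untranslated regions. Calm3 (ENSMUSG00000019370.10, chr7:16915379-16924114, minus strand) had a single peak, at E11.5, at chr7:16916816-16916964 and 149 bp wide. It began 17 coding bases before the end of the stop codon, which those bases include, and ran 132 nt into a 3' UTR of 1569 nt. It ranked 180 of 6530 by p at E11.5, with p = 2.23e-05 and q = 0.00396 in the authors' deposited list, and its deposited signal of 261.9 exceeded that of 93.6% of the peaks of the day. No Calm3 peak was listed on the other 3 days.

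The transcript Calm3-202, annotated as a nonsense-mediated decay form, removes an intron of 1019 bp from the 3' UTR, at chr7:16915679-16916697. The E11.5 peak lay upstream of this intron, with 118 nt between them, so it fell in sequence that both Calm3-201 and Calm3-202 keep. Of the 2 annotated coding transcripts of Calm3, only Calm3-201 holds the whole peak. An intron in the Calm3 3' UTR that can stay in the mature RNA is known from rat neurons, where it takes part in STAU2-dependent localisation. Whether the intron of Calm3-202 is its mouse counterpart was not tested. No base of it was covered by a listed peak on any day.

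Calm2 (ENSMUSG00000036438.13, chr17:87433412-87446935, minus strand) was listed at E15.5 and E17.5 only. The E17.5 list held a peak of 102 bp at chr17:87433666-87433767, from 260 to 361 nt after the stop codon in a 3' UTR of 615 nt. Its signal of 929.6 exceeded that of 99.1% of the peaks at E17.5, the highest share reached by a member, while its rank by p was 2740 of 6341 (p = 0.00122 in the authors' deposited list). The 3' edge of this peak lay 1 base inside the annotated end of the shorter transcript Calm2-204, and 254 nt before the end of Calm2-201.

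The other Calm2 peaks were over 10 times the median width of their list, and they were the only member peaks found at the same place on different days. At E15.5 a peak of 1147 bp covered chr17:87433950-87435096, and at E17.5 a peak of 1158 bp covered chr17:87433943-87435100. Each spanned the whole last intron of 1020 bp. The E15.5 peak held 106 bases of the last exon and 21 of the exon before it. The E17.5 peak held 113 bases of the last exon and 25 of the one before. The E15.5 peak lay entirely inside the E17.5 peak. By the authors' deposited p it ranked 9989 of 10265 (p = 0.0036), and the E17.5 peak ranked 2967 of 6341 (p = 0.00136) in its own list. Their signals of 350.3 and 482.8 exceeded those of 97.3% and 98.2% of the peaks of their days.

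Among all 18912 exonic peaks of protein-coding genes, 11.3% likewise began in 1 exon and ended in another of the longest coding transcript. The annotated retained-intron transcript Calm2-203 has an exon that extends into the last Calm2 intron. Counting exons of all Calm2 transcripts, 309 bases of the E15.5 wide peak and 320 of the E17.5 one were exonic. Whether reads over this intron came from unspliced RNA, from Calm2-203 or from spliced reads that bridged it was not tested, since the lists hold no reads. The 25-mers were taken from the bases of the wide peaks in exons of Calm2-201. Of these, 5 of 103 at E15.5 and 5 of 114 at E17.5 also occur in the transcript of the processed pseudogene Gm14480. For the other 10 peaks none of the 25-mers occurred in an annotated transcript of another gene.

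**Figure D2:**
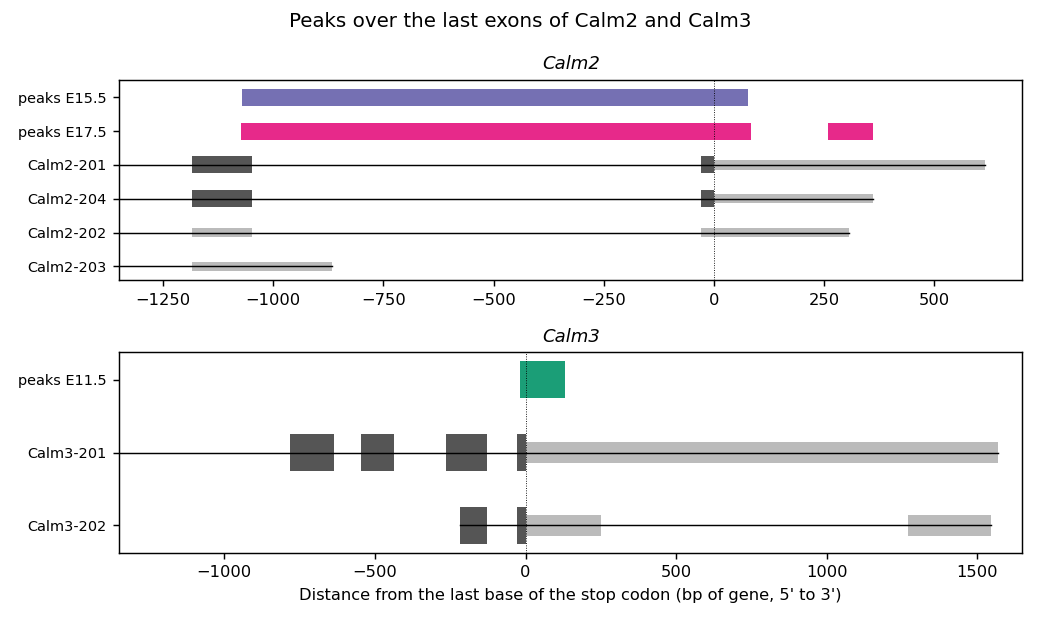
Listed peaks (coloured) above annotated transcripts of Calm2 and Calm3 (dark, coding; light, untranslated or noncoding), by distance in bp from the last base of the stop codon, 5' to 3'. The Calm2 peaks of 1147 and 1158 bp cover the last intron and the ends of both exons beside it; the Calm3 peak ends before the 3' UTR intron of Calm3-202.

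Ppp3ca encodes the main catalytic A subunit of calcineurin in the brain. Its only peak (ENSMUSG00000028161.17, chr3:136937474-136937552, plus strand, 79 bp, E17.5) was the best-ranked of the 12 by p, at 13 of 6341 with p = 5.3e-06 and q = 0.00582 in the authors' deposited list. By the deposited q and score the Calm3 peak of E11.5 was ahead, with q = 0.00396 and a score of 483 against 334 for Ppp3ca. The signal of the Ppp3ca peak, 16.7, was above that of 39.9% of the peaks at E17.5 and below the median of that day, 22.9. The peak lay from 2249 to 2327 nt after the stop codon, 175 nt before the end of the long 3' UTR of Ppp3ca-202. The shorter coding transcript Ppp3ca-201 ends 1694 nt before it, so of the 2 annotated coding transcripts only the long one contains the peak.

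Ppp3cb encodes a second catalytic subunit. At E13.5 a peak of 112 bp lay at chr14:20500281-20500392 (ENSMUSG00000021816.11, minus strand), from 1092 to 1203 nt after the stop codon, and ranked 5627 of 5871 with a signal of 34.2. At E15.5 a peak of 71 bp lay at chr14:20500878-20500948, from 536 to 606 nt after the stop codon, and ranked 4055 of 10265 with a signal of 503.0, above 98.2% of that day's peaks. The 2 positions were separated by 485 bases and did not overlap. Both peaks lay in 3 of the 4 annotated coding transcripts, which share a last exon; the remaining one ends in a different exon.

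Ppp3r1 encodes the calcium-binding B subunit of calcineurin. It had 2 peaks at E13.5 and 1 at E15.5 in a 3' UTR of 2069 nt (ENSMUSG00000033953.10, chr11:17159263-17200375, plus strand). The stronger E13.5 peak (chr11:17199807-17199923, 117 bp) ranked 383 of 5871 with p = 8.06e-05 in the authors' deposited list and a signal of 30.4. The other E13.5 peak (chr11:17199201-17199249, 49 bp) ranked 2523 with a higher signal of 146.3. The E15.5 peak (chr11:17199659-17199714, 56 bp) ranked 3252 of 10265 with a signal of 48.8.

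Along the Ppp3r1 3' UTR the E15.5 peak lay between the E13.5 peaks, 409 bases after the first and 92 bases before the second, and overlapped neither. All 3 also fall within an intron of Wdr92, a gene annotated on the same strand whose body overlaps that of Ppp3r1. The lists cannot tell unspliced Wdr92 RNA from Ppp3r1 RNA there. Ppp3cc, which encodes a catalytic subunit best known from testis and is not a member, had a coding peak of 76 bp at E13.5, rank 2915.

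The CaMKII genes gave 2 peaks in all, both weak by rank. Camk2b encodes the beta subunit, which tethers the kinase to actin. Its peak at E17.5 (ENSMUSG00000057897.14, chr11:5969884-5970008, minus strand, 125 bp) ranked 5297 of 6341, with a score of 2 and q = 0.00997 in the authors' deposited list, just inside the 0.01 below which all listed peaks stayed. Its signal of 98.2 nevertheless exceeded that of 86.7% of the peaks at E17.5. It lay from 1820 to 1944 nt after the stop codon, 240 nt before the end of the 3' UTR. Only 3 of the 10 annotated coding transcripts reach that far: the next shorter one ends 1559 bases before the peak.

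Camk2g encodes the gamma subunit, which can carry calmodulin to the nucleus. Its peak at E15.5 (ENSMUSG00000021820.18, chr14:20735431-20735481, minus strand, 51 bp) ranked 9627 of 10265 with a signal of 53.6 and q = 0.00981 in the authors' deposited list. It lay from 1384 to 1434 nt after the stop codon, in 3 of the 9 annotated coding transcripts. Camk2a, whose messenger RNA is known for its transport into dendrites of mature neurons, and Camk2d, which encodes the delta subunit, had no peak in exon or intron. Their annotated 3' UTRs, of 3372 and 3591 nt, were the longest of the 9 genes, beside a median of 877 nt over protein-coding genes.

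Across the 12 peaks the order by p and the order by signal differed. Of the 12, 8 were in the stronger 50% of their day by p and 3 in the strongest 10%: Ppp3ca at E17.5, Calm3 at E11.5 and Ppp3r1 at E13.5. By signal, 11 of the 12 lay above the median of their day, and Ppp3ca was the exception. The signal is a value of the authors whose scaling is not given in the sources used here, so it was compared only within a day.

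**Figure D3:**
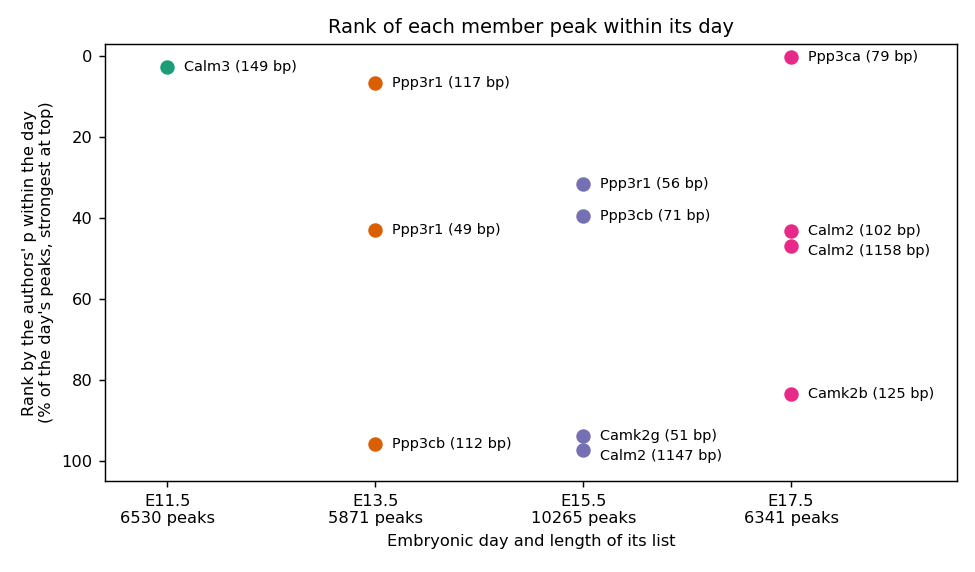
Rank of each member peak by the authors' p as a percentage of that day's list (y axis, strongest at the top), by embryonic day; points are single peaks with their width. Ppp3ca at E17.5, Calm3 at E11.5 and 1 Ppp3r1 peak at E13.5 lie in the strongest 10% of their lists.

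**Figure D4:**
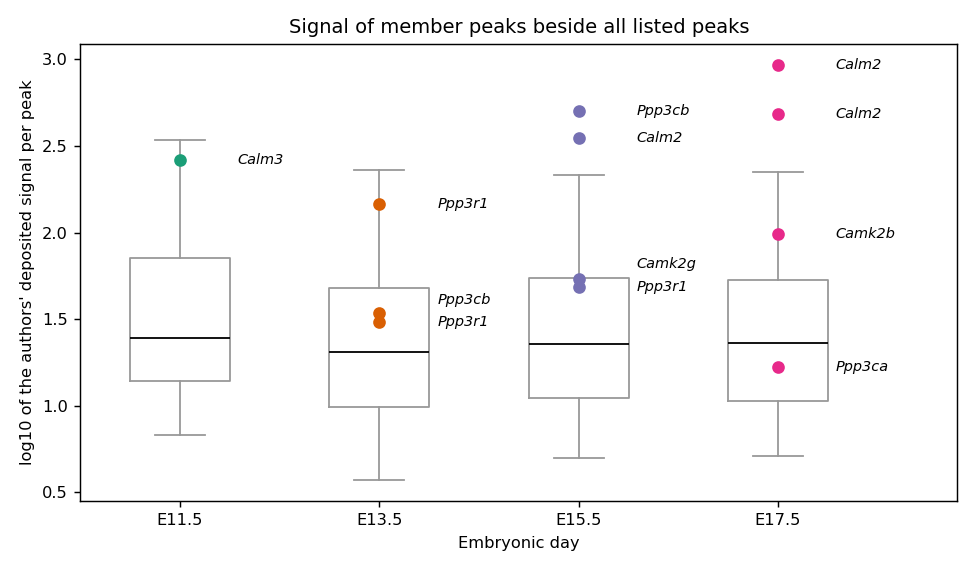
Deposited signal of each member peak on a log10 scale (points), by embryonic day, beside all listed peaks of that day (boxes, median and quartiles; whiskers, 5th to 95th percentile). All member peaks except Ppp3ca lie above the median of their day.

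The peaks did not share a base composition. The 10 peaks within 1 exon had GC contents from 28.2% (Ppp3cb at E15.5) to 52.3% (Calm3), and 4 of the 10 lay above the 3' UTR of their own gene. Over all 8990 peaks of 300 nt or less within a 3' UTR, the median was 47.9% with quartiles of 39.6% and 54.3%. The Ppp3ca peak, at 44.3% GC, stood in a 3' UTR of 35.4% GC, and the short Calm2 peak, at 41.2%, in one of 35.6%.

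Predicted pairing varied likewise. The mean minimum free energy of 30-nt windows was lower, and the windows so more stable, in the peak than over the 3' UTR of the gene in 5 of the 10 peaks. The Ppp3ca peak averaged -3.94 kcal/mol against -2.11 over its 3' UTR, the stronger Ppp3r1 peak of E13.5 -3.29 against -2.31, and the short Calm2 peak -3.06 against -2.36. For Ppp3cb the peaks of E13.5 and E15.5 averaged -2.25 and -2.33 against -2.15. The reverse held for Calm3, at -2.67 in the peak against -4.17 over its GC-rich 3' UTR, and for Camk2b, at -2.86 against -4.74. It also held for Camk2g, at -3.06 against -4.02. The shorter Ppp3r1 peak of E13.5 and the Ppp3r1 peak of E15.5, at -1.63 and -1.5 against -2.31, were likewise less stable than their 3' UTR. The median over all 8990 peaks within 3' UTRs was -3.12 kcal/mol, with quartiles of -4.51 and -1.98.

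Recurrence over days was limited to Calm2. Of the 12 peaks, 2 were overlapped by a peak of another day, the wide peaks of E15.5 and E17.5. This E15.5 peak ranked 9989 of 10265, outside both the strongest 5871 peaks and the stronger 50% of its list. Lists shortened in these ways therefore hold no overlap of member peaks between days. Of all exonic peaks of protein-coding genes, 29.8% were overlapped by one of another day. The members were chosen with their peaks known, so their count is not read against this share. In Ppp3cb and Ppp3r1, the other genes listed on more than 1 day, the peaks lay at different places of the same 3' UTR.

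Of 74 other calcium signalling genes, an exonic peak was found in 7 at E11.5 and 10 at E13.5, then in 21 at E15.5 and 23 at E17.5. These are 9.5%, 13.5%, 28.4% and 31.1% of that list, beside 9.09%, 11.8%, 19.9% and 13.6% of all protein-coding genes. The list was chosen with earlier results of these data known, and its difference from all genes was not tested. Among the stronger 50% of each day's peaks, the list had 18 genes at E15.5 and 12 at E17.5, so the order of these days turned. Over all days 39 of the 74 had an exonic peak, and 57 of the 80 peaks with an exonic midpoint had it in a 3' UTR.

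Among partners of CaMKII, Camk2n2, which encodes an inhibitor of the kinase, was listed at E13.5 (3' UTR, rank 234 of 5871), E15.5 and E17.5. Of the 12 other CaM kinase genes and their regulators, none had an exonic peak at E11.5. On the following days 2, 5 and 6 did (16.7%, 41.7% and 50%). Over all protein-coding genes the shares from E11.5 to E17.5 were 9.09%, 11.8%, 19.9% and 13.6%. No group of the list was tested against these shares. Camkv, a kinase-like calmodulin-binding protein gene, was among the best-ranked at E17.5 (3' UTR, rank 849 of 6341). Of the 8 genes of calmodulin-binding proteins that hold, release or respond to calmodulin, 1, 1, 5 and 3 were listed from E11.5 to E17.5. These were 12.5%, 12.5%, 62.5% and 37.5% of the group. Marcksl1, a substrate of protein kinase C that binds calmodulin, had the best rank of the list at E11.5 (coding, rank 50 of 6530), and Pcp4 the best at E17.5 (rank 321 of 6341), where the peak was 31675 bp wide.

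On the calcineurin side, Cabin1, which encodes an inhibitor of calcineurin, was listed on 3 days, while Rcan1, Rcan2, Rcan3 and Akap5 had no exonic peak. Among 12 transcription factors and coactivators from families that calcineurin or the CaM kinases control, 4, 1, 5 and 3 were listed by day. These were 33.3%, 8.3%, 41.7% and 25% from E11.5 to E17.5, beside 9.09%, 11.8%, 19.9% and 13.6% of all protein-coding genes. Nfat5 is counted among the 12. Crtc2, a coactivator of CREB that calcineurin dephosphorylates, had an exonic peak on all 4 days, the only gene of the 74 to do so. Nfat5, which differs from its NFAT relatives in lacking calcineurin control, was listed on 3 days with ranks of 818 at E11.5 and 210 at E15.5, and Nfatc3 ranked 1504 at E11.5. Crtc1 ranked 797 at E15.5.

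Of the 22 genes for calcium entry, stores and pumps, 1, 4, 3 and 8 were listed from E11.5 to E17.5. These were 4.5%, 18.2%, 13.6% and 36.4%, beside 9.09%, 11.8%, 19.9% and 13.6% of all protein-coding genes. The NMDA receptor gene Grin1 (rank 816 of 6341) was listed at E17.5 alone, and the calcium channel gene Cacna1e at E13.5 (rank 652 of 5871) and E17.5. Atp2a2, the calcium pump gene of the endoplasmic reticulum, was listed on the first 3 days. Of the 7 cyclase, phosphodiesterase and nitric oxide synthase genes, Pde1c was listed at E15.5 and Nos1 at E17.5.

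**Figure D5:**
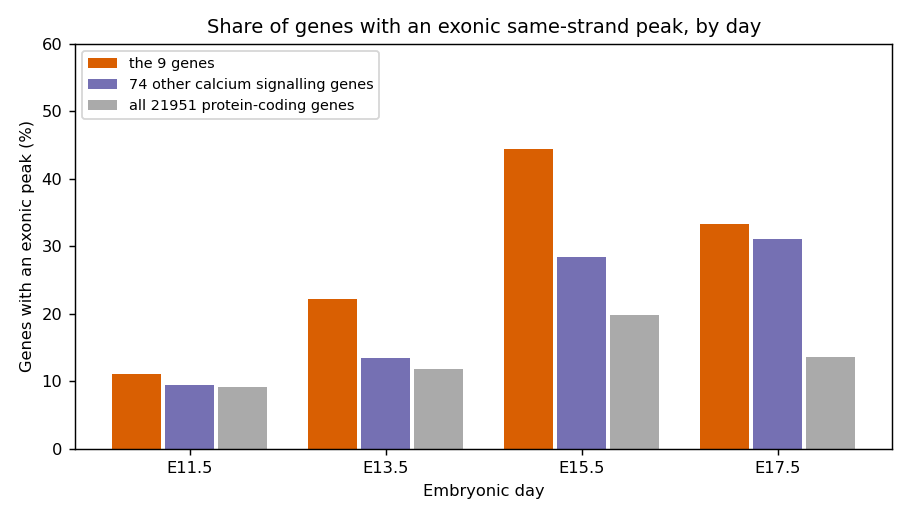
Percentage of genes with a same-strand peak touching an exon (y axis), by embryonic day, for the 9 genes, the 74 other calcium signalling genes and all 21951 protein-coding genes. The 9 genes were chosen with their peaks known, and the 74 with earlier results of these data known. At E17.5 the 74 other genes stand at 31.1% beside 13.6% of all genes, a difference that was not tested.

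Markers of the labelled tissue were found among the exonic peaks. Of 9 genes of cortical progenitors, 6 had a peak on at least 1 day, and Sox2, Hes1 and Hes5 had none. Of 9 genes of cortical neurons, 6 did, and of 7 genes of vessels and meninges, 6 did, beside 30.1% of all protein-coding genes. Vessel and meninges genes were listed most at E13.5, with 5 of 7, beside 1 on the first day and 2 and 0 on the last days; their part in the member peaks of E13.5 was not tested. Of 4 globin genes, Hba-x alone was listed, at E11.5, and of 4 microglia genes Csf1r alone, at E13.5 and E15.5.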

How the data were processed

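STAU2 RIP and input RNA of mouse cortex were sequenced at 4 embryonic days, and 8 deposited peak lists, 1 per day and strand, were used. Per the labels, the build is mm10; the submitters' processing notes name TopHat2 2.0.9, bedtools 2.17.0 and Cufflinks 2.2.1 without roles. The sources used here give neither the peak caller nor its test, and do not say whether a listed peak was higher in RIP or in input. Each peak carries a score, a signal, a p-value and a q-value that the authors deposited without column names; they were used to describe and rank peaks within a day, over both strands. The lists give no read totals, so depth is unknown.

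Genes were taken from GENCODE vM21 (GRCm38, equal to mm10). In lists read as plus or minus strand, between 93.5% and 96.8% of peaks over 1 protein-coding gene lay on its strand. The transcript part of a peak was that of its midpoint over all isoforms, and distances were counted in the longest coding transcript. Sequences within 1 exon were folded with ViennaRNA 2.7.2, also in windows of 30 nt at steps of 5 nt, and 25-mers were sought in all annotated transcripts. The class code was tested on simulated data. The members and gene lists were chosen with earlier results of these data known; other calcium genes are named when listed on at least 3 days or among the 3 best-ranked of a day. Genes with like patterns were to be sought for members with at least 5 peaks, and none had so many.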

Additional observations from a re-analysis of the deposited data

How the results depend on the processing

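Of 66 recomputed counts, 55 stayed within 1.5 times their value. Taking only the stronger 50% of each day's peaks left 1 member with a peak at E13.5 and 2 at E15.5, over the gene body and over exons alike, with 2 member peaks at E15.5, and 4 of the other calcium signalling genes at E11.5, 12 at E17.5 and, at E15.5, 18. Making the lists equally long, at 5871 peaks each, left 2 members and 2 member peaks at E15.5. Counting peaks of either strand gave 5 at E13.5. Reading the class from most bases or the longest transcript, and stricter exon or midpoint rules, changed no count by more than 1.5 times. Nor did 50% overlap for shared positions, which were not recounted in the shortened lists. The authors' lists pool all libraries of a day, so leaving out a replicate could not be run. No paired analysis was possible because no deposited column carries a replicate. Camk2b, Camk2g, the E13.5 peak of Ppp3cb and the E15.5 peak of Calm2 lie near the authors' q threshold, and unknown depth limits what their absence on other days shows.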

Other observations

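Peaks on the strand opposite to a member gene were listed at E13.5 only. A peak of 52 bp lay within the Calm2 3' UTR (chr17:87433617-87433668, plus strand, rank 5038 of 5871, signal 9.2). It shared 3 bases of position with the minus-strand Calm2 peak of E17.5. A peak of 4779 bp with a signal of 4.3 crossed Camk2g (chr14:20747839-20752617, plus strand, rank 4121 of 5871), with 13 of its bases over Camk2g exons.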
